A study of Homo sapiens with 12 samples.

Results

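The genes described here are the activin subunit genes INHBA and INHBB, the activin-binding inhibitors FST and FSTL3, the TGF-β ligand genes TGFB1 and TGFB2, the TGF-β-induced matrix gene TGFBI, the bone morphogenetic protein genes BMP2 and BMP4, and SMAD7. They were chosen by name and are 10 of the 60651 genes in the deposited count table. All 10 passed the filter on low counts in every fit. It was known when they were chosen that FST lay below the sum of the single-agent effects in EGI-1, so that value is given below as a description, without a test. The other FST comparisons in EGI-1, and those between the lines, use libraries that entered this value. Their p-values, and the counts of genes called that include FST, are therefore not independent of this choice.

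Total RNA of 2 human cholangiocarcinoma cell lines, HUCCT1 and EGI-1, was sequenced in 12 libraries, 2 for each of 6 arms. Cholangiocarcinoma is a cancer of the bile duct epithelium. HUCCT1 cells, grown in RPMI medium, received vehicle (DMSO) or 1 µM decitabine. EGI-1 cells, grown in DMEM, received vehicle (DMSO), 0.5 µM decitabine, 200 nM talazoparib or decitabine and talazoparib together at these doses. Every library was taken after 72 h, and the labels give both lines as wild type. Library names of the talazoparib arm carry another number than this labelled dose. Decitabine is a nucleoside analogue that traps DNA methyltransferases, and talazoparib is an inhibitor of the DNA repair enzymes PARP1 and PARP2. The names of the libraries also carry a mark that differs between the 2 lines, and its meaning is not given. Dose, medium and whatever this mark stands for differ between the lines, so a difference between HUCCT1 and EGI-1 cannot be told apart from any of them. No label states that the 2 libraries of an arm came from separate cultures, so every p-value measures only the spread between these libraries. All 3 EGI-1 treatments were compared with the same 2 vehicle libraries.

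The libraries held 23139065 to 33181930 counted reads in EGI-1 and 32519985 to 34965627 in HUCCT1. EGI-1 combination replicate 2 stood apart, because the leukocyte genes PTPRC and CD3E had 381 and 148 reads there, against at most 7 and 23 in any other library. The leukocyte markers summed to 19.8 CPM (read counts scaled to library size) in that library, 1.96 CPM in combination replicate 1 and 1.79 to 4.50 CPM elsewhere. Their part in any result was not tested, and the calls and list counts that change without this library are given with the results. The biliary marker KRT19 was expressed in both lines, at 1461 to 1661 CPM in EGI-1 and 1576 to 3070 CPM in HUCCT1, whereas the hepatocyte gene TTR was at 0 in all 12 libraries. In bulk RNA, fewer cells expressing a gene and less RNA per cell cannot be told apart.

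Activins are dimers of inhibin β subunits. They bind type II activin receptors, which recruit a type I receptor that phosphorylates SMAD2 and SMAD3, and TGF-β ligands reach the same SMAD proteins through their own receptors. Bone morphogenetic proteins act mainly through SMAD1, SMAD5 and SMAD9. Follistatin (FST) and FSTL3 are secreted proteins that hold activins away from their receptors, while SMAD7 is an intracellular inhibitor induced by the pathway itself. In epithelial tumors the TGF-β family is known for effects on growth arrest, matrix production and epithelial-mesenchymal transition, and activin A, the INHBA dimer, is also known as a factor secreted by senescent cells.

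Because decitabine acts on methylation of CpG dinucleotides, the sequences just upstream of 4 genes that decitabine changed in HUCCT1 are shown, INHBA, FST and FSTL3 as genes that rose and TGFB1 as a gene that fell. Each run holds the 250 bases before the RefSeq start in GRCh38.p14, 5′ to 3′ on the strand of the gene, with CpG dinucleotides in capitals. They lie at chr7:41703091-41703340 on the minus strand, chr5:53480379-53480628 on the plus strand, chr19:676142-676391 on the plus strand and chr19:41353923-41354172 on the minus strand.
INHBA: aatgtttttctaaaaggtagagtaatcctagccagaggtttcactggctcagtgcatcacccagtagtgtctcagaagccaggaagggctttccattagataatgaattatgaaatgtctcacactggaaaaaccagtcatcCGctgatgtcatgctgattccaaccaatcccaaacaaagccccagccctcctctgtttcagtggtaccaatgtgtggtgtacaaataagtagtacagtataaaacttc
FST: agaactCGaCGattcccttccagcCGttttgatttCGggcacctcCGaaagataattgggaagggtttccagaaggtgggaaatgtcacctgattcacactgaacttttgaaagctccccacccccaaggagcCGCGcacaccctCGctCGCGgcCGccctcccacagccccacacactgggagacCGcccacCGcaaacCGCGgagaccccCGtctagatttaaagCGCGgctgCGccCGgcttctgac
FSTL3: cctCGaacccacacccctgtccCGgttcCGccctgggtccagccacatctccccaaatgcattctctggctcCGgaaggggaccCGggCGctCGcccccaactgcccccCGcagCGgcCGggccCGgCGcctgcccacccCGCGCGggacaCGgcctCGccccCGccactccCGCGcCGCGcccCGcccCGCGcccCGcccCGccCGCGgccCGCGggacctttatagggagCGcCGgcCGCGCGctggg
TGFB1: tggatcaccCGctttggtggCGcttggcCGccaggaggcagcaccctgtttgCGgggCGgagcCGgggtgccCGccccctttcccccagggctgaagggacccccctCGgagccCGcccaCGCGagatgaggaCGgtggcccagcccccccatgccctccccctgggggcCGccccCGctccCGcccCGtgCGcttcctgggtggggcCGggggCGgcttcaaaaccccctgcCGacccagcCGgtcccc

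In GENCODE 44 on GRCh38, INHBA spans chr7:41667168-41705834, so that its RefSeq start lies inside the annotated gene, and FST spans chr5:53480626-53487134. FSTL3 lies at chr19:676392-683392, TGFB1 at chr19:41301587-41353922, INHBB at chr2:120346136-120351803, TGFB2 at chr1:218345336-218444619, TGFBI at chr5:136028988-136063818, BMP2 at chr20:6767686-6780246, BMP4 at chr14:53949736-53958761 and SMAD7 at chr18:48919853-48950965.

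The 4 sequences hold 1, 20, 36 and 21 CpG dinucleotides in this order, so the genes that rose included both the poorest and the richest of them. RefSeq promoters were matched for 9 of the 10 genes, 13 promoters of 300 bases in all, reaching from 250 bases before the start to 50 after it. Over all 35116 promoters in the table the median was 14 CpG dinucleotides. Of these promoters, 3.96% had fewer than the 1 of INHBA, 99.8% fewer than the 58 of INHBB and 95.8% fewer than the 44 of FSTL3. The letters CAGACA, a SMAD-binding element searched on both strands, occurred in 3 of the 13 promoters (INHBA, TGFB2 and 1 of 3 of BMP4) and in 16.9% of all promoters. The letters TGAGTCA, the AP-1 motif, occurred in 0 of 13 and in 4.95% of all promoters on either strand. These are matches of letters only, and DNA methylation was not measured in these libraries.

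Under vehicle, the family differed between the lines in all 10 genes, with 8 higher in HUCCT1 and 2 (TGFBI and BMP2) higher in EGI-1. Of all 25096 genes tested, 55.8% were called in this comparison by edgeR's quasi-likelihood test, 28.5% higher and 27.3% lower in HUCCT1. The largest difference was that of TGFB2, with 170 and 167.6 CPM in HUCCT1 and 18.6 and 18.8 CPM in EGI-1, a 9.01-fold difference. FSTL3 was 6.88-fold higher in HUCCT1. INHBA was nearest to equal, 0.50 higher on the log2 scale, at 141 and 143 CPM against 100.6 and 99.4 CPM.

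Levels of different genes were set side by side as CPM per kb of exon, with all annotated exons of a gene merged. For TGFBI this length is 7717 bases, against 2712 in its canonical transcript, and for BMP4 3096 against 1931. The order of the genes therefore depends on the length used and holds only for merged exons. In HUCCT1 vehicle cells, BMP4 was highest of the 10 by this measure at 84.6 ± 8.70 CPM per kb (SD, n = 2). TGFBI followed at 69.9 and TGFB1 at 45.9. FSTL3 and FST followed at 34.2 and 34.0 CPM per kb and did not differ beyond their spread, nor did INHBB at 13.5 and SMAD7 at 12.9. BMP2 was lowest at 1.33 CPM per kb. In EGI-1 vehicle cells TGFBI led at 120.3 CPM per kb, ahead of BMP4 at 23.1, TGFB1 at 18.7, INHBA at 12.1 and FST at 10.99, and BMP2 was again lowest at 2.85.

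In HUCCT1 cells, 72 h of decitabine raised both activin subunits, both activin inhibitors and BMP2, and lowered TGFB1, TGFBI and BMP4. That is 5 genes higher and 3 lower of 10, where 33.5% of the 22479 genes tested were called in either direction, 19.6% higher and 13.9% lower. The median log2 fold change of the 10 was 0.28, against 0.00 over all genes tested. INHBA rose from 141 and 143 CPM to 694 and 683 CPM, a log2 fold change of 2.27 (SE 0.108, edgeR adjusted p = 9.96e-15), or 4.82-fold. The treated libraries lay far above both vehicle libraries. INHBB, which forms activin B, went from 42.1 and 44.3 CPM to 54.9 and 63.4 CPM, a smaller rise of 0.44 on the log2 scale (SE 0.115, edgeR adjusted p = 0.00388).

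The inhibitors rose too. FST went from 90.5 and 96.3 CPM to 217 and 216 CPM in HUCCT1, 2.31-fold (log2 fold change 1.20, SE 0.107, edgeR adjusted p = 1.78e-09). FSTL3, which is related to follistatin, went from 88.3 and 119 CPM to 166.8 and 217 CPM (log2 fold change 0.88, SE 0.136, edgeR adjusted p = 2.49e-05). For both genes each treated library exceeded each vehicle library, although the 2 libraries of an arm lay further apart for FSTL3 than for FST. Per kb of merged exon, INHBA at 83.2 and FST at 78.8 were highest in HUCCT1 under decitabine. FSTL3 was next at 63.3 CPM per kb and BMP4, which had led under vehicle, was at 52.1. This order too depends on the exon length used.

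TGFB1, the main TGF-β isoform, fell from 138 and 161.2 CPM to 90.9 and 104 CPM in HUCCT1, by 0.63 on the log2 scale (SE 0.113, edgeR adjusted p = 9.04e-05). TGFBI, a secreted matrix protein named for its induction by TGF-β, fell from 522 and 557 CPM to 370.0 and 350.0 CPM (log2 fold change -0.59, SE 0.105, edgeR adjusted p = 7.26e-05). TGFB2, at 170 and 167.6 CPM under vehicle and 192 and 174 CPM under decitabine, did not pass the test (log2 fold change 0.11, edgeR adjusted p = 0.480). The TGFB1 exons overlap those of opposite-strand neighbours over 6.59% of their length, and the neighbour HNRNPUL1 had 11610 to 20819 reads a library. Whether the counting used strand is not given in the sources used here.

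The BMP genes moved in opposite directions. BMP2 rose from 4.55 and 4.86 CPM to 24.9 and 32.9 CPM, 6.08-fold, the largest fold of the 10 in HUCCT1 (log2 fold change 2.60, SE 0.159, edgeR adjusted p = 1.39e-12). BMP4 fell from 243 and 281 CPM to 155 and 167.3 CPM (log2 fold change -0.71, SE 0.109, edgeR adjusted p = 1.29e-05). The arms did not overlap for either gene, nor for any other of the 10 except SMAD7, the uncalled TGFB2 included. The inhibitory SMAD7 had 45.9 and 55.7 CPM under vehicle and 52.0 and 56.8 CPM under decitabine, overlapping arms with a log2 fold change of 0.09 (edgeR adjusted p = 0.608).

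Of the HUCCT1 calls, only that of INHBB was lost when a library was left out (decitabine replicate 2, log2 fold change 0.34, edgeR adjusted p = 0.0940). Cell type markers, those of the lines' own biliary type included, moved in the same comparison. Summed biliary markers went from 14789 to 16594 CPM under vehicle to 9387 to 10747 CPM (1 of 8 higher, 5 lower), and the endothelial markers from 4.10 to 5.47 CPM to 24.9 to 26.0 CPM (3 of 3 higher). The fibroblast markers summed to 8.07 to 10.8 CPM under vehicle and 8.52 to 9.34 CPM under decitabine (2 of 3 higher, COL1A2 and PDGFRB, and LUM lower). Their part in these results was not tested.

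In EGI-1 cells the single agents changed fewer of the 10 genes, and FST was called under both. As FST was chosen with a value from these libraries in view, its EGI-1 calls are not independent support. With 0.5 µM decitabine it was the only gene of the 10 to pass, where 0.544% of the 22406 genes tested did (0.518% higher). FST had 29.9 and 30.5 CPM under vehicle and 43.6 and 45.3 CPM under decitabine, a 1.48-fold rise (log2 fold change 0.56, SE 0.0703, edgeR adjusted p = 0.000783). Without vehicle replicate 1 the FST call was lost (log2 fold change 0.54, edgeR adjusted p = 0.0510).

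INHBA was split between the EGI-1 decitabine libraries, at 142 and 104 CPM, against 100.6 and 99.4 CPM under vehicle. Its log2 fold change was 0.31 (edgeR adjusted p = 0.483). It became 0.51 without decitabine replicate 2, where it was called (edgeR adjusted p = 6.19e-05), and 0.07 without decitabine replicate 1, so the value rests on 1 library. TGFB1 at 0.20 and BMP2 at 0.38 on the log2 scale were not called (edgeR adjusted p = 0.343 and 0.248) but were called without decitabine replicate 1 (0.28 and 0.52).

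With talazoparib, FST rose to 72.8 and 72.3 CPM, above both decitabine libraries and 2.40-fold over vehicle (log2 fold change 1.26, SE 0.0694, edgeR adjusted p = 1.45e-08). INHBA rose to 149 and 158 CPM (log2 fold change 0.62, SE 0.123, edgeR adjusted p = 0.0245) and TGFB1 to 79.1 and 73.1 CPM from 61.8 and 60.1 CPM (log2 fold change 0.32, SE 0.0720, edgeR adjusted p = 0.0134). These were the 3 genes called, all higher, where 4.12% of all genes tested passed and 2.83% were higher. FSTL3, BMP4, TGFBI and SMAD7 had log2 fold changes of 0.35, -0.20, -0.15 and -0.29 and did not pass. The FST call held with each library left out. That of INHBA was lost without either vehicle library, either talazoparib library or combination replicate 1 (edgeR adjusted p = 0.0526 to 0.226), and that of TGFB1 without either vehicle library or talazoparib replicate 1 (edgeR adjusted p = 0.162 to 0.257).

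The combination raised INHBA, FST, FSTL3, TGFB1 and BMP2 in EGI-1 and lowered BMP4. These were 6 of 10 genes, where 18.7% of all genes tested passed (11.1% higher, 7.61% lower), and the median log2 fold change of the 10 was 0.32 against -0.02 over all genes. INHBA rose to 191 and 205 CPM, 1.97-fold over vehicle (log2 fold change 0.98, SE 0.123, edgeR adjusted p = 0.000615). Both combination libraries exceeded every other EGI-1 library in INHBA. FST stood at 62.2 and 64.8 CPM, 2.09-fold over vehicle (log2 fold change 1.06, SE 0.0697, edgeR adjusted p = 1.10e-08). FSTL3 rose from 14.8 and 15.4 CPM to 23.3 and 25.4 CPM (log2 fold change 0.68, SE 0.0985, edgeR adjusted p = 9.09e-05).

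TGFB1 had fallen in HUCCT1 decitabine and was not called in EGI-1 decitabine (log2 fold change 0.20). Under the combination it rose to 87.3 and 87.1 CPM (log2 fold change 0.51, SE 0.0719, edgeR adjusted p = 7.30e-05). Line, medium, dose and talazoparib all differ between HUCCT1 decitabine and this arm. BMP4 fell from 69.9 and 73.0 CPM to 51.1 and 44.3 CPM (log2 fold change -0.59, SE 0.0914, edgeR adjusted p = 0.000206). BMP2 went from 9.72 and 10.5 CPM to 13.5 and 14.7 CPM (log2 fold change 0.47, SE 0.121, edgeR adjusted p = 0.0108). INHBB at 14.7 and 15.3 CPM, TGFB2 at 16.2 and 15.6 CPM, TGFBI at 901 and 908 CPM and SMAD7 at 36.4 and 34.97 CPM did not pass, with log2 fold changes of 0.17, -0.24, -0.05 and 0.03. Without combination replicate 2, the library with leukocyte reads, INHBA (0.93), FST (1.04), FSTL3 (0.62), TGFB1 (0.51) and BMP4 (-0.49) were still called and BMP2 was not (0.41, edgeR adjusted p = 0.0976). In the combination the endothelial markers summed to 28.6 to 29.8 CPM, against 19.7 to 21.2 CPM under vehicle, and their part was not tested (2 of 3 markers higher). The BMP2 call was also lost without vehicle replicate 1 (edgeR adjusted p = 0.137) or vehicle replicate 2 (edgeR adjusted p = 0.0559).

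**Figure D1:**
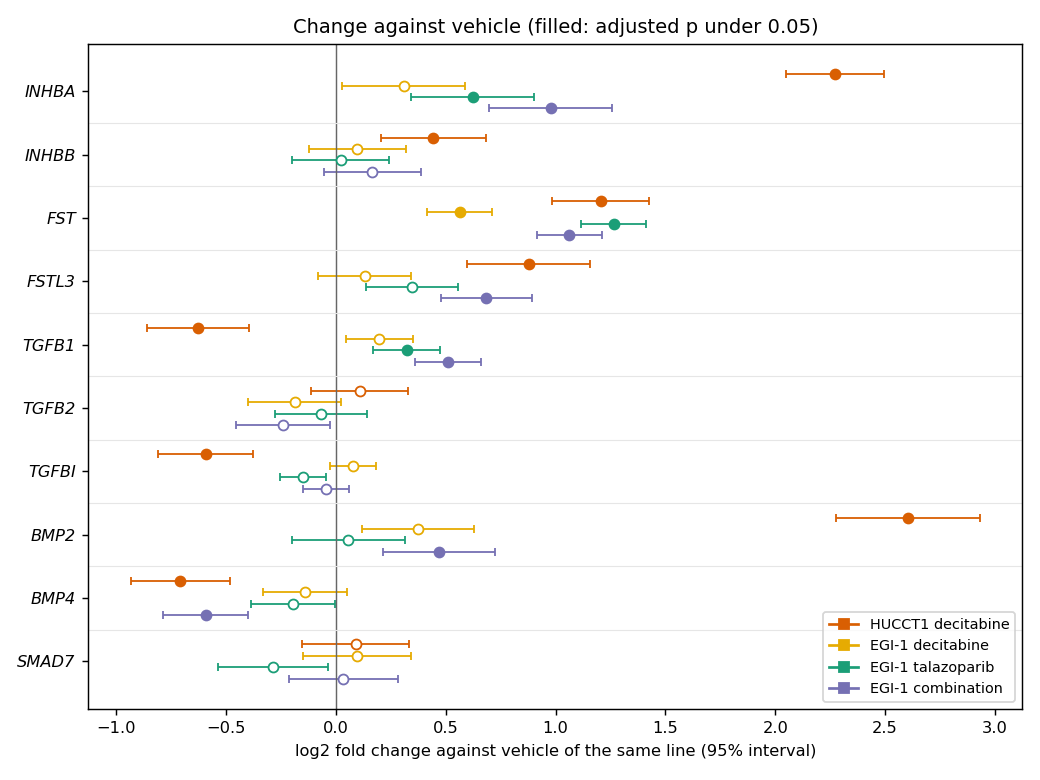
Log2 fold change against vehicle of the same line (x axis) with its 95% interval for each gene (y axis), with 1 color per treatment and filled points for an edgeR adjusted p under 0.05. FST is filled in all 4 comparisons. TGFB1 lies at -0.63 in HUCCT1 decitabine, at 0.20 (not filled) in EGI-1 decitabine and at 0.51 in the EGI-1 combination.

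Set against decitabine alone, the combination had higher INHBA (0.67), FST (0.50), FSTL3 (0.55) and TGFB1 (0.31) and lower BMP4 (-0.45) on the log2 scale, 5 of 10 genes where 7.68% of all genes passed (4.42% higher, 3.26% lower). The edgeR adjusted p-values were 0.0111, 0.000148, 0.00165, 0.0110 and 0.00494. Without combination replicate 2 only FST (0.47) and FSTL3 (0.49) were called, and INHBA, TGFB1 and BMP4 had edgeR adjusted p = 0.0874, 0.0709 and 0.101. TGFB1 also missed the threshold without decitabine replicate 1 (edgeR adjusted p = 0.0631) or combination replicate 1 (edgeR adjusted p = 0.0639), and with only the arms compared (edgeR adjusted p = 0.0509).

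Set against talazoparib alone, BMP4 was the only gene of the 10 called, where 1.92% of all genes passed and 0.567% were lower. It was lower in the combination, at 51.1 and 44.3 CPM against 64.9 and 59.7 CPM (log2 fold change -0.40, SE 0.0918, edgeR adjusted p = 0.0331). That call was lost without either vehicle library, either talazoparib library or combination replicate 2 (log2 fold change -0.46 to -0.29, edgeR adjusted p = 0.0913 to 0.370), and in both fits with a replicate block (edgeR adjusted p = 0.0894 and 0.0665). FST was not separated from talazoparib alone, with a log2 difference of -0.20 and a 95% interval from -0.34 to -0.06 before adjustment (edgeR adjusted p = 0.162). INHBA had a difference of 0.35 (edgeR adjusted p = 0.240).

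FST in the combination lay below what the single-agent effects add up to. Decitabine (0.56) and talazoparib (1.26) sum to 1.83 on the log2 scale, or 3.55-fold, whereas the combination gave 1.06, or 2.09-fold. The departure was -0.76 with an SE of 0.0969. Across all genes tested, 0.161% were called as departing from the sum, 34 genes (0.152%) below it and 2 above it. This departure was in view when FST was chosen, so nothing is read from the share. INHBA in the combination lay close to its sum (departure 0.05, SE 0.173). BMP4 (-0.26, SE 0.128) was the next furthest below and SMAD7 (0.22) the furthest above. Of the 10 genes 7 lay above and 3 below the sum, but 8 departures were under 2 standard errors in size.

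The ratio of INHBA to FST per kb of exon within a library, which leaves out INHBB and FSTL3, went different ways. The level of such a ratio depends on the exon length used. In HUCCT1 it was 0.518 and 0.492 under vehicle and 1.06 and 1.05 under decitabine, so INHBA gained on FST. In EGI-1 it was 1.12 and 1.08 under vehicle and 0.681 and 0.727 under talazoparib, where FST had gained on INHBA, and 1.02 and 1.05 in the combination. The decitabine libraries gave 1.08 and 0.763, following the split in INHBA. With INHBB added to INHBA and FSTL3 to FST, the mean ratio was 0.452 in HUCCT1 vehicle and 0.717 in HUCCT1 decitabine. In EGI-1 this ratio was 1.02, 0.898, 0.697 and 0.919 in vehicle, decitabine, talazoparib and combination. No exact two-sided permutation test of these arms of 2 libraries can go below p = 0.333, so the ratios are descriptions. The ratio of the subunits INHBA to INHBB went from a mean of 1.27 to 4.53 in HUCCT1 and stood at 2.90, 3.39, 4.40 and 5.10 in EGI-1 vehicle, decitabine, talazoparib and combination. The ratio of BMP4 to BMP2 went from 63.6 to 6.49 in HUCCT1 and from 8.09 to 3.90 between EGI-1 vehicle and combination.

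The decitabine effect itself differed between the lines for 7 of the 10 genes, where 15.9% of all genes tested did (8.74% higher, 7.2% lower), with doses of 1 µM in HUCCT1 and 0.5 µM in EGI-1. INHBA, FST, FSTL3 and BMP2 rose more in HUCCT1, and TGFB1, TGFBI and BMP4 went lower there. The HUCCT1 minus EGI-1 differences were 1.98 for INHBA (edgeR adjusted p = 2.17e-09), 2.25 for BMP2 (6.62e-08) and -0.81 for TGFB1 (0.000111) on the log2 scale. That of FSTL3, 0.76 (edgeR adjusted p = 0.0148), lost its call without either EGI-1 vehicle library or either EGI-1 decitabine library (edgeR adjusted p = 0.0526 to 0.120).

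Beyond the 10 genes, 6 lists of pathway genes were counted, with several genes on more than 1 list (LTBP2 among antagonists and targets, SMAD6 among SMAD proteins and BMP targets). The shares of all genes tested that were called, against which these counts are set, were 33.5% in HUCCT1 decitabine (19.6% higher, 13.9% lower) and 0.544%, 4.12% and 18.7% in EGI-1 decitabine, talazoparib and combination, or 10.7% in the combination without replicate 2. The list of TGF-β and activin target genes had the most genes called higher in each comparison with vehicle. It was chosen with earlier results of these data known, and no other list had more genes tested, so this rank is a description. In HUCCT1 decitabine 13 of 21 tested members rose and 2 fell, with a median log2 fold change of 0.79. In EGI-1 the same list had 7 higher and 0 lower of 20 with decitabine, 8 and 2 with talazoparib, and 12 and 2 with the combination, with medians of 0.21, 0.32 and 0.59. Without combination replicate 2 the last count was 10 higher and 1 lower, with BHLHE40, TAGLN and CCN2 no longer called.

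Among the targets, the cytokine gene IL11 rose from a mean of 6.74 to 29.4 CPM with the combination in EGI-1 (log2 fold change 2.11, edgeR adjusted p = 1.04e-09), after 1.07 with decitabine and 1.30 with talazoparib, and by 1.77 in HUCCT1. SNAI1, a transcription factor of epithelial-mesenchymal transition, rose by 1.31 and CDKN1A, a cell cycle inhibitor, by 1.09 in the combination. In HUCCT1 the collagen gene COL1A1 rose from 28.1 to 174 CPM (2.62 on the log2 scale), COL4A1 from 1.06 to 47.6 CPM (5.48) and SNAI1 by 2.81. TIMP3, an inhibitor of matrix metalloproteinases, had 0 to 1 reads in the HUCCT1 vehicle libraries and 661 to 706 under decitabine, at least 224-fold higher against a floor of 3 reads per library. TGFBI and SMAD7, described above as induced by TGF-β or its pathway, are not on this list. With decitabine in HUCCT1, TGFBI fell (-0.59) and SMAD7 was not called (0.09). Activity of the pathway was not measured.

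Extracellular antagonists and latency proteins followed, with 10 of 21 higher and 2 lower in HUCCT1 and 6 of 18 higher and 1 lower in the EGI-1 combination, against 33.5% and 18.7% of all genes called. Without combination replicate 2 the latter count was 5 of 19 higher and 0 lower, with BMPER and ITGB6 no longer called (edgeR adjusted p = 0.0608 and 0.164). BMPER, a secreted modulator of BMP signalling, rose by 2.35 and the follistatin-like gene FSTL1 by 1.30 in HUCCT1, where TWSG1 fell by 0.66. In the EGI-1 combination the BMP antagonist NOG rose by 0.79, NRROS, which holds latent TGF-β, by 1.02 and LTBP4 by 0.54. In EGI-1, decitabine alone gave 1 higher of 18 and talazoparib alone gave 2 higher, with 0 lower in either.

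Of 15 receptors and co-receptors in HUCCT1, 4 rose and 5 fell, where 19.6% of all genes were higher and 13.9% lower. The genes that fell included the BMP receptors BMPR2 (-0.77), BMPR1B (-0.51) and BMPR1A (-0.50), while the BMP co-receptor RGMA rose by 2.83. In the EGI-1 combination 4 of 14 rose and 1 fell. The TGF-β co-receptor endoglin (ENG) rose from a mean of 43.2 to 89.3 CPM (1.04 on the log2 scale), TGFBR2 by 0.54 and the activin receptor gene ACVR1B by 0.38, and TGFBR3 fell by 0.65.

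Of 17 SMAD proteins and intracellular regulators, 2 rose and 4 fell in HUCCT1, and 3 rose and 3 fell in the EGI-1 combination, where 33.5% and 18.7% of all genes were called. The HUCCT1 count was near that background. Without combination replicate 2, 3 were higher and 1 lower. The ubiquitin ligase gene SMURF2 fell by 0.77 in HUCCT1 and rose by 0.40 in the combination. PMEPA1, a feedback inhibitor of TGF-β signalling, fell by 0.61 in HUCCT1. SMAD6, an inhibitory SMAD of the BMP branch, fell by 0.96 in the combination, a call that was lost without combination replicate 2 (-0.86, edgeR adjusted p = 0.0572), as was that of TGIF1 (-0.23, edgeR adjusted p = 0.115).

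BMP target genes counted 5 higher and 2 lower of 10 in HUCCT1, with MSX2 at 1.12, MSX1 at 1.07, ID1 at -0.88 and ID2 at -0.75. In the EGI-1 combination 1 of 9 rose and 1 (SMAD6) fell, and without combination replicate 2 the counts were 1 and 0. Other ligands of the superfamily counted 3 higher and 2 lower of 13 in HUCCT1 and 1 higher and 2 lower of 12 in the combination. Of all genes tested, 33.5% and 18.7% were called in these comparisons. The ligand counts in both, and the BMP target count in the combination, were near that background. Without combination replicate 2 the ligands counted 2 higher and 1 lower, as TGFB3 was then called (0.73, edgeR adjusted p = 0.0350) and BMP3 was not (-1.74, edgeR adjusted p = 0.0795). GDF15, a stress-induced ligand, rose by 0.88 in HUCCT1, and GDF11 fell by 0.46 there and rose by 0.58 in the EGI-1 combination.

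Over the 8 EGI-1 libraries, the genes whose levels ran most like INHBA were CD59 (Pearson r = 0.994), DUSP10 (0.992), POLR3A (0.990), CDC123 (0.990) and DKK3 (0.989). For FST they were CCNQ (0.980), MACF1 (0.977), ETV5 (0.973), ZBED2 (0.970) and CLPB (0.968). These were the highest of 14360 genes, and the points share their arms, so the coefficients are descriptions. INHBA and FST correlated with each other at 0.823 over the same 8 libraries, and INHBA with BMP4 at -0.936.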

How the data were processed

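The study's methods give stranded, rRNA-depleted total RNA libraries for EGI-1. The authors deposited raw read counts per gene (whole numbers, GRCh38) in 1 table of 60651 genes. The submitters' processing notes name fastp, Trim Galore, HISAT2 and featureCounts, whereas the study's methods name fastp, STAR and RSEM. Reads shared by near-identical genes could be counted differently by these tools. Identifiers were matched to symbols for 60437 genes (GENCODE 44). CPM were computed with TMM factors over all 12 libraries.

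Each line was fitted with edgeR 4.0.16 in R 4.3.3 (filterByExpr, TMM, robust quasi-likelihood test, no replicate block), with 22479 genes in HUCCT1 and 22406 in EGI-1. Comparisons between lines used all 12 libraries and 25096 genes. P-values were adjusted by the Benjamini-Hochberg method over all genes tested, with a threshold of 0.05. The departure from the sum is combination minus decitabine minus talazoparib plus vehicle on the log2 scale. The 2 libraries of every arm differed beyond sampling noise (chi-square per gene 2.73 to 12.6), so they were not counted as 1 sample, although they may share a culture. The fit was tested on simulated counts. Alternatives were other scalings, no filter, DESeq2 1.42.0, replicate blocks, other sets of libraries and leaving out each library. Named pathway genes were the called genes of each list with the largest changes and a mean log2 CPM of at least 1, and likeness was Pearson's r of log2(CPM + 0.5). The genes and lists were chosen with earlier results of these data known. A gene of the target list is not reported here. Promoters are from RefSeq (GRCh38.p14).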

Additional observations from a re-analysis of the deposited data

Results flagged for a closer look

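The decitabine effect differed between HUCCT1 (1 µM) and EGI-1 (0.5 µM) for 7 of the 10 genes by the interaction test of edgeR over 12 libraries. The HUCCT1 minus EGI-1 differences in log2 fold change were 1.98 for INHBA, 0.66 for FST, 0.76 for FSTL3, -0.81 for TGFB1, -0.65 for TGFBI, 2.25 for BMP2 and -0.55 for BMP4. The edgeR adjusted p-values of FST, TGFBI and BMP4 were 0.000132, 4.13e-05 and 0.00743. That of FST uses EGI-1 libraries that were in view when FST was chosen, so it is not independent support. INHBB (0.36), TGFB2 (0.31) and SMAD7 (0.01) did not pass, but INHBB did without HUCCT1 decitabine replicate 1 (0.46, edgeR adjusted p = 0.0457). Dose, medium, line and whatever the differing mark in the library names stands for cannot be told apart.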

How the results depend on the processing

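Over all alternatives, 1303 of 1400 recomputed values of the 10 genes kept their direction and side of the threshold, 32 lost the call, 31 gained it and 34 changed sign, 0 of them in a called value. The counts of the 10 genes called stayed at 7 to 8 in HUCCT1, 5 to 6 in the EGI-1 combination, 6 to 8 for the difference between lines and 10 between vehicles.

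In EGI-1 decitabine, the count of 1 became 2 without the filter and 0 to 3 with a library left out. With talazoparib, 3 became 7 with only the arms compared and 1 to 6 with a library left out. Against decitabine, the combination's 5 became 4 with only the arms compared and 2 to 5 with a library left out. Against talazoparib, its 1 became 4 without the filter, 5 with only the arms compared, 0 with all 12 libraries in 1 fit, 0 with a replicate block by title number, 0 with a replicate block by name series, and 0 to 5 with a library left out. In the fit of 12 libraries the TGFB1 call with talazoparib was also lost (edgeR adjusted p = 0.0716). The cause was not tested. Deviations from the arm mean, gene by gene, correlated between same-numbered libraries of different arms at 0.294 in HUCCT1 and -0.266 to 0.195 in EGI-1. In HUCCT1 decitabine, a replicate block by title number moved the number of all genes called from 7525 to 10136. Whether same-numbered libraries were handled together is not given, and the main fit used no block.

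Sign changes were all in uncalled values. With upper-quartile factors SMAD7 in the combination became -0.0026 and TGFB1 beyond the sum 0.0026, the latter 0.0068 with 12 libraries. The SMAD7 difference between lines became -0.0090 with RLE factors, -0.061 without the filter and -0.013 with DESeq2, and ranged from -0.20 to 0.23 with a library left out. With a library left out, SMAD7 ranged from -0.052 to 0.21 in HUCCT1 decitabine, -0.14 to 0.30 in EGI-1 decitabine, -0.049 to 0.12 in the combination and -0.27 to 0.17 against decitabine. INHBB and BMP2 ranged from -0.0078 to 0.043 and -0.0031 to 0.11 with talazoparib. Against decitabine, INHBB ranged from -0.0031 to 0.15, TGFB2 from -0.14 to 0.046 and BMP2 from -0.043 to 0.25. Beyond the sum, INHBA ranged from -0.15 to 0.29, INHBB from -0.021 to 0.13, TGFB1 from -0.089 to 0.084, TGFB2 from -0.072 to 0.12 and BMP2 from -0.097 to 0.19.

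Over all genes, leaving out libraries or changing the fit moved the number called from 122 to between 22 and 417 in EGI-1 decitabine, from 923 to 247 to 1851 with talazoparib, from 4194 to 1850 to 5799 with the combination (1850 without vehicle replicate 2), from 1720 to 853 to 2544 against decitabine (853 without combination replicate 2), from 431 to 111 to 1007 against talazoparib, from 36 to 27 to 85 beyond the sum and from 4000 to 2540 to 4525 between lines. Upper-quartile factors gave 2177 higher and 2244 lower genes in the combination, against 2489 and 1705, and moved the median of all genes by -0.12 between vehicles. Leaving combination replicate 2 out of the list counts was chosen after seeing the data, and list genes named for a call gained or lost by it were chosen after their values were seen. It left 1 BMP target called in place of 2, 4 SMAD proteins and regulators in place of 6, 5 antagonists in place of 7 and 11 targets in place of 14, and turned the other ligands from 1 higher and 2 lower to 2 higher and 1 lower. With 2 libraries per arm, a lone remaining library is assumed to vary like the other arms.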

Other observations

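The decitabine effect on the TGF-β and activin target list also differed between the lines, with 10 of 21 genes higher and 1 lower in HUCCT1 minus EGI-1, where 15.9% of all genes tested were called. COL1A1 (2.30 on the log2 scale), SNAI1 (1.75), CCN2 (1.22), IL11 (0.72) and VEGFA (0.60) rose more in HUCCT1. The growth arrest gene CDKN1A had a difference of 0.22 and did not pass (edgeR adjusted p = 0.343). SMURF2, PMEPA1 and BMPR2 went lower in HUCCT1 by -0.97, -0.73 and -0.71. In the departure from the sum in EGI-1, 0 of 20 tested targets were called by edgeR.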
